A study of Mus musculus with 4 samples.

Results

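The 10 genes described here are grouped as nutrient transporters of the endothelium of the blood-brain barrier. The group holds Slc2a1, Slc16a1, Slc7a5, Slc3a2, Slc7a1, Slc38a5, Slc22a8, Slco1c1, Slco1a4 and Mfsd2a, not all of which carry nutrients, as described below. They were chosen by gene symbol, and all 10 were found among the 21578 genes that the deposited tables hold together. RNA was sequenced from brain endothelial cells of C57BL/6 mice at postnatal day 0 (P0), purified by flow cytometry, to ask how loss of PD-1 from endothelial cells changes the vessels of the developing brain. The 2 control libraries came from Pd1fl/fl mice, in which both Pd1 alleles carry loxP sites and no Cre is named. The other 2 libraries came from Pd1cKO-Tie2 mice, which carry the same floxed alleles together with Tie2-Cre. The Tie2 promoter drives Cre in endothelial cells and is also known to be active in blood-forming and myeloid cells, so the deletion need not be limited to the endothelium. No label says whether the libraries of a genotype came from separate mice, so the p-values below measure the spread between these libraries, which may be technical.

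Brain capillary endothelial cells are sealed to each other by tight junctions, so polar nutrients reach the brain through carriers in the endothelial membranes. Glucose, lactate, amino acids, thyroid hormone and the lipid forms of omega-3 fatty acids each have their own carriers. These carriers are among the genes that separate brain endothelium from that of other organs. Wnt/β-catenin signalling in brain endothelium is known to maintain several of them, Slc2a1 and Mfsd2a included.

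The libraries held between 13715837 and 24147311 counted reads, with the deepest being Pd1cKO-Tie2 replicate 1. Levels below are TMM-scaled CPM, the reads of a gene relative to the size of its library, with a scaling that sets the bulk of genes equal between libraries. Levels of different genes are compared only per kilobase of exon. Pdcd1, which encodes PD-1, held 32, 0, 0 and 0 counts in Pd1fl/fl replicates 1 and 2 and Pd1cKO-Tie2 replicates 1 and 2, so its RNA did not tell Pd1fl/fl replicate 2 from the Pd1cKO-Tie2 libraries, and it was not tested. The defining genes of endothelium were present in every library: the summed level of 18 pan-endothelial markers was 13760 and 12670 CPM in the Pd1fl/fl and 16380 and 17460 CPM in the Pd1cKO-Tie2 libraries. Pd1fl/fl replicate 1 stood apart by its neutrophil markers, whose sum was 912 CPM against 1.32 to 55.4 CPM in the other libraries. The criterion of the study's methods, which asks for a 2-fold change together with an unadjusted p up to 0.05, called 4.02% of the 15909 genes tested with edgeR's quasi-likelihood test (1.41% as higher in Pd1cKO-Tie2). In edgeR's test the smallest Benjamini-Hochberg adjusted p was 0.735, so 0 genes passed an adjusted p of 0.05, while 1016 had an unadjusted p under 0.05. DESeq2 gave 117 genes with an adjusted p under 0.05, none of them a member.

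No member met the criterion, and no member passed an adjusted p of 0.05 in edgeR's test. The 10 members ranged from 0.68-fold to 1.37-fold of the control level. With TMM scaling, 9 of the 10, all but Slco1a4, had higher levels in each Pd1cKO-Tie2 library than in either control, against 17.7% of all tested genes in this direction and 35.8% in either direction. With scaling to endothelial marker genes 0 members did, against 5.83% of all tested genes, as described after the single genes. Unadjusted p-values were under 0.05 for 7 of the 10, all of them higher, against 6.39% of all tested genes and 2.84% in this direction. The median log2 fold change was 0.32 over the members and -0.0038 over all tested genes. The count of 7 fell when either Pd1cKO-Tie2 library or Pd1fl/fl replicate 2 was left out, and rose without Pd1fl/fl replicate 1. Such fits leave 1 library in a genotype, with fewer libraries to estimate the spread, so only their effect sizes are compared here. With Pd1cKO-Tie2 replicate 2 left out, the median log2 fold change was 0.31 over the members and -0.035 over all tested genes. These medians were 0.26 and 0.044 for leaving out Pd1fl/fl replicate 2, and 0.36 and -0.068 for Pd1cKO-Tie2 replicate 1. For Pd1fl/fl replicate 1 they were 0.38 and 0.030. Together the members took 1.26% and 1.21% of the counts in the Pd1fl/fl libraries and 1.49% in each Pd1cKO-Tie2 library.

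The members differed in their levels far more than the genotypes did. Slc2a1 had the highest level per kilobase and stood between the 14th and the 19th place among all tested genes. Mfsd2a, Slc3a2, Slco1c1 and Slc38a5 followed, then Slc22a8, Slc16a1, Slc7a5 and Slc7a1, and Slco1a4 was far below the rest. The order was the same in 3 libraries, and in Pd1cKO-Tie2 replicate 2 Slc16a1 stood above Slc22a8. These neighbours, with 287 and 227 CPM per kilobase for Slc22a8 and 241 and 225 for Slc16a1 in the Pd1fl/fl libraries, did not differ beyond the spread of the libraries. Slc38a5 and Slc22a8 also overlapped in the Pd1fl/fl libraries, and each other pair of neighbours was separate in both genotypes.

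**Figure D1:**
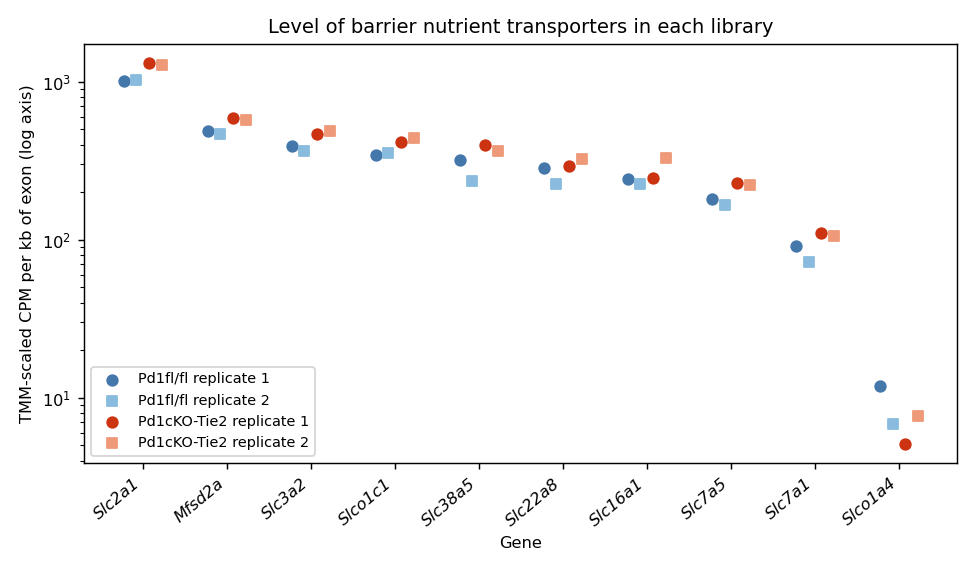
Level of the 10 transporters in each library, as TMM-scaled CPM per kilobase of exon on a log axis, with 1 point for each library and genes ordered by their mean level. Slc2a1 sits between 1008 and 1315 and Slco1a4 between 5.10 and 11.8, and on this scaling the Pd1cKO-Tie2 points lie above the Pd1fl/fl points for every gene but Slco1a4.

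Slc2a1 encodes GLUT1, the glucose carrier of brain endothelium. The gene lies on the plus strand at chr4:119108711-119137983 (GRCm38), with 3506 bases of annotated exon, of which 105 overlap the antisense gene Gm12868. It held 51079, 51451, 110418 and 61557 counts in Pd1fl/fl replicates 1 and 2 and Pd1cKO-Tie2 replicates 1 and 2, the order used for all values below. These were 3536, 3617, 4611 and 4499 CPM. Both Pd1cKO-Tie2 libraries were above both Pd1fl/fl libraries, and the gap between genotypes was wider than the gap within either. The mean level was 3576 ± 57.2 CPM in the controls and 4555 ± 79.3 CPM in the Pd1cKO-Tie2 libraries (SD, n = 2 each). The fitted log2 fold change was 0.35 ± 0.084 (SE), a 1.27-fold level with a 95% interval of 1.10 to 1.47, and edgeR's p was 0.00658 with an adjusted p of 0.735. The unadjusted p of Slc2a1 stayed under 0.05 without any 1 of the 4 libraries, which held for no other member.

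Slc16a1 encodes MCT1, which carries lactate, pyruvate and ketone bodies and is a main route of fuel into the suckling brain. It lies on the plus strand at chr3:104638668-104658462. Its levels were 1069, 997, 1091 and 1453 CPM. The Pd1cKO-Tie2 libraries differed from each other by more than the lower of them differed from the controls, so the genotypes were separate by a narrow margin only. The log2 fold change was 0.30 ± 0.16 (SE), with edgeR's p at 0.118 and adjusted p at 0.910. It was 0.084 without Pd1cKO-Tie2 replicate 2 and 0.50 without Pd1cKO-Tie2 replicate 1.

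Slc7a5 and Slc3a2 encode the light chain LAT1 and the heavy chain CD98hc (4F2hc) of the carrier for large neutral amino acids, which brings leucine, phenylalanine and the thyroid hormones across the barrier. Slc7a5 is on the minus strand at chr8:121881150-121907694 and Slc3a2 on the minus strand at chr19:8706882-8723369. Slc7a5 was at 676, 618, 846 and 830.3 CPM. Slc3a2 was at 1391, 1281, 1646 and 1727 CPM. For both chains the Pd1cKO-Tie2 libraries were close to each other and above both controls. The Slc7a5 level was 1.30-fold of control (95% interval 1.05 to 1.59), with edgeR's p at 0.0226 and adjusted p at 0.735. The Slc3a2 level was 1.26-fold of control (95% interval 1.05 to 1.52), with edgeR's p at 0.0221 and the same adjusted p. CD98hc also pairs with other light chains, and per kilobase Slc3a2 exceeded Slc7a5 by 2.16-fold, 2.18-fold, 2.04-fold and 2.19-fold in the 4 libraries. This ratio of the chains overlapped between the genotypes. Of the 50-base stretches of Slc3a2 exon, 3.42% also occur in other genes, so some of its reads could have been assigned differently.

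Slc7a1 encodes CAT1, the carrier of arginine and lysine, and lies on the minus strand at chr5:148327410-148399904. Its levels were 1057, 836, 1271 and 1225 CPM. The Pd1fl/fl libraries were further apart than the Pd1cKO-Tie2 libraries, and the genotypes did not overlap. The log2 fold change was 0.40 ± 0.15 (SE), with edgeR's p at 0.036 and adjusted p at 0.753. Without Pd1fl/fl replicate 2, the lower control, the log2 fold change was 0.24. The gene has 11530 bases of exon, the longest of the members, and per kilobase it stood second lowest, at 91.6, 72.5, 110.2 and 106.2 CPM.

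Slc38a5 encodes SNAT5, a carrier of glutamine, histidine and other amino acids with nitrogen in their side chain, and lies on the plus strand at chrX:8271133-8280179. Its levels were 720.2, 529, 891 and 819 CPM. Both Pd1cKO-Tie2 libraries were above the controls, and the controls were the more variable pair. Its log2 fold change, 0.45 ± 0.18 (SE), was the highest among the members, with a 95% interval from 0.012 to 0.89 and edgeR's p at 0.0457 (adjusted p 0.760). It ranged from 0.25 without Pd1fl/fl replicate 2 to 0.69 without Pd1fl/fl replicate 1.

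Slc22a8 and Slco1c1 encode carriers of organic anions. Slc22a8 (OAT3), on the plus strand at chr19:8591254-8611834, clears acidic metabolites and drugs from the brain, and Slco1c1 (OATP1C1), on the plus strand at chr6:141524368-141570177, takes up thyroxine. Slc22a8 was at 1120, 887, 1154 and 1274 CPM. The lower Pd1cKO-Tie2 library barely exceeded the higher control, and edgeR's p was 0.121 (adjusted p 0.912) for a log2 fold change of 0.27 ± 0.15 (SE). This value was 0.12 without Pd1fl/fl replicate 2 and 0.46 without Pd1fl/fl replicate 1. Slco1c1 was at 1786, 1845, 2167 and 2282 CPM. Here the libraries of each genotype lay close together and apart from the other genotype, with a log2 fold change of 0.29 ± 0.098 (SE) and edgeR's p at 0.0259 (adjusted p 0.735).

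Slco1a4 encodes OATP1A4, a carrier of bile acids, steroid conjugates and drugs that is strong in adult brain endothelium. It lies on the minus strand at chr6:141805440-141856199, on the same chromosome as Slco1c1. It held 1097, 624, 783 and 674 counts, or 75.9, 43.9, 32.7 and 49.3 CPM. Pd1fl/fl replicate 1 was the highest and Pd1cKO-Tie2 replicate 1 the lowest, and the genotypes overlapped, since Pd1cKO-Tie2 replicate 2 exceeded Pd1fl/fl replicate 2. The log2 fold change was -0.55 ± 0.37 (SE), with edgeR's p at 0.193 and adjusted p at 0.953. The 95% interval of its fold, 0.361 to 1.29, spans no change and does not exclude a 2-fold lower level. The value was -0.097 without Pd1fl/fl replicate 1 and -0.89 without Pd1fl/fl replicate 2. Among its 50-base stretches of exon, 1.61% are shared with the paralogs Slco1a5 and Slco1a1 and with Gm6614. Per kilobase, the Slco1a4 level was 3.44%, 1.92%, 1.22% and 1.75% of that of Slco1c1, and these shares were lower in both Pd1cKO-Tie2 libraries than in either control.

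Mfsd2a encodes the carrier of lysophosphatidylcholine with docosahexaenoic acid, and is known to hold down vesicle transport across brain endothelium. It lies on the minus strand at chr4:122946850-122961188. Its levels were 1092, 1052, 1325 and 1282 CPM. Both genotypes had little spread, at 1072 ± 28.3 CPM in the controls and 1304 ± 30.02 CPM in the Pd1cKO-Tie2 libraries (SD, n = 2 each), and they did not overlap. The level was 1.22-fold of control (95% interval 1.01 to 1.46), with edgeR's p at 0.0399 and adjusted p at 0.753. Per kilobase, Slc2a1 exceeded Mfsd2a by 2.08-fold, 2.21-fold, 2.23-fold and 2.25-fold in the 4 libraries.

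Among the 9 members higher in Pd1cKO-Tie2, the highest upper bound of a 95% interval was 1.86-fold with TMM scaling and all 4 libraries. These intervals thus lay below 2-fold, but they measure only the spread between these libraries, which may be technical. The pan-endothelial markers moved with these 9 members. All 18 of these markers, none of them a member, were higher in each Pd1cKO-Tie2 library than in either control, with a median log2 fold change of 0.36, and 0 met the criterion. In RNA of bulk cells, fewer cells of a type and less RNA per cell cannot be told apart.

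Scaled to the geometric mean of the 18 pan-endothelial markers in place of TMM, the members had a median log2 fold change of -0.041, while the median of all tested genes was -0.36. Under this scaling 3 members were higher and 7 lower in the fit. Of the 10 members only Slc3a2 and Slco1a4 did not overlap between genotypes, both of them being lower. Of all tested genes, 46.3% did not overlap and 40.5% were lower in this way. Slc3a2 was separate by a narrow margin only, with a fitted log2 fold change of -0.020. On the log2 scale relative to the markers it was at 1.6323, 1.6375, 1.6285 and 1.6006. Slc2a1, on the log2 scale relative to the markers, was at 2.98, 3.13, 3.11 and 2.98 in the order given above. Mfsd2a was at 1.28, 1.35, 1.32 and 1.17. In both genes the genotypes overlapped once set against the markers. Slco1a4 was at -2.56, -3.23, -4.03 and -3.53, so both Pd1cKO-Tie2 libraries were below both controls, and its fitted log2 fold change of -0.90 had an unadjusted p of 0.0429 in edgeR's test (adjusted p 0.430).

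**Figure D2:**
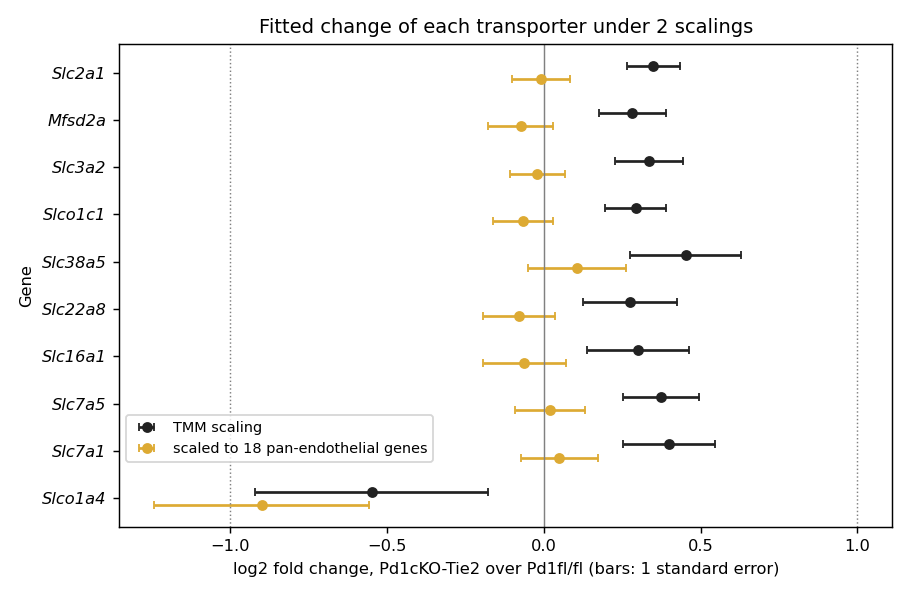
Fitted log2 fold change of each transporter, Pd1cKO-Tie2 over Pd1fl/fl (x axis), with TMM scaling (black) and with scaling to 18 pan-endothelial genes (yellow), where bars are 1 standard error and dotted lines mark 2-fold. The TMM values lie between 0.27 and 0.45 for 9 genes, the marker-scaled values of these 9 lie between -0.078 and 0.11, and Slco1a4 lies at -0.55 and -0.90.

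The partners and paralogs of the members formed a list of 20 genes, of which 17 were listed in the tables and 16 were tested. They include the chaperones of MCT1, the other light chains of CD98hc and the relatives of the glucose and lactate carriers that other brain cells use. Of the 16, 5 were higher and 11 lower in the fit, 2 met the criterion, both lower, and 0 passed an adjusted p of 0.05 in edgeR's test. Their median log2 fold change was -0.21. In the criterion's direction of lower genes, 2.61% of all tested genes were called.

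Bsg encodes basigin, the chaperone that brings MCT1 to the membrane. It was at 7312, 6263, 9085 and 8896 CPM. Both Pd1cKO-Tie2 libraries were above both controls, with a log2 fold change of 0.41 ± 0.099 (SE), and edgeR's p was 0.007 with an adjusted p of 0.735. Emb encodes embigin, a second chaperone of these carriers. Its log2 fold change was -1.42 ± 0.60 (SE) with edgeR's p at 0.0565, and both Pd1cKO-Tie2 libraries were below both controls. The value was -0.84 without Pd1fl/fl replicate 2, -0.91 without Pd1cKO-Tie2 replicate 1 and -2.16 without Pd1cKO-Tie2 replicate 2, and Emb met the criterion in 9 of 13 alternative fits.

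The paralogs of the glucose and lactate carriers had low levels and negative fitted values. Slc2a3 encodes GLUT3, the main glucose carrier of neurons, and was at 55.3, 84.2, 29.9 and 39.98 CPM. Both Pd1cKO-Tie2 libraries were below both controls, and its log2 fold change of -0.9996 ± 0.32 (SE; edgeR p 0.0212) narrowly missed the 2-fold limit, which it passed with the criterion's p in 8 of 13 alternative fits. Without Pd1fl/fl replicate 2 it was -0.66. Slc16a3 encodes MCT4, a lactate exporter of glycolytic cells, and was at 20.2, 19.3, 9.86 and 7.09 CPM. It fell in Pd1cKO-Tie2 by the criterion, with a log2 fold change of -1.22 ± 0.42 (SE), edgeR's p at 0.0288 and an adjusted p of 0.738. Slc16a7 encodes MCT2, a lactate carrier of neurons, and was at 7.27, 12.2, 2.92 and 2.70 CPM. It fell by the criterion too, with a log2 fold change of -1.78 ± 0.68 (SE), edgeR's p at 0.0402 and an adjusted p of 0.753. The Pd1cKO-Tie2 libraries of both genes were below both controls. Both calls were lost in 3 of the 4 fits that left out a library. For Slc16a3 the log2 fold change was -1.18 (p 0.089) without Pd1fl/fl replicate 1, -1.25 (p 0.0726) without Pd1fl/fl replicate 2 and -0.997 (p 0.102) without Pd1cKO-Tie2 replicate 2. For Slc16a7 it was -1.36 (p 0.227) without Pd1fl/fl replicate 2, -1.83 (p 0.0808) without Pd1cKO-Tie2 replicate 1 and -1.73 (p 0.0973) without Pd1cKO-Tie2 replicate 2. The fitted values thus stayed negative in each of these fits with 3 libraries.

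Markers of microglia, macrophages and radial glia were lower in the same libraries as these paralogs. The summed level of 9 microglia and macrophage markers was 2025 and 2495 CPM in the controls and 769 and 1712 CPM in the Pd1cKO-Tie2 libraries, with 7 of 9 markers lower in both Pd1cKO-Tie2 libraries, against 18.1% of all tested genes, and 1 called. For 10 radial glia and astrocyte markers the sums were 1116 and 1280 CPM against 818 and 682 CPM, with 6 of 10 lower and 2 called. For 10 neuronal markers the sums of 875 and 1250 CPM in the controls overlapped those of 1050 and 912 CPM in the Pd1cKO-Tie2 libraries. Pericyte and smooth muscle markers, 10 in number, had the largest sums of these lists. They were at 5735 and 3748 CPM in the controls and 3851 and 3821 CPM in the Pd1cKO-Tie2 libraries, and so overlapped too. Rgs5 alone gave most of each sum, at 4905 and 3213 CPM in the controls and 3252 and 3272 CPM in the Pd1cKO-Tie2 libraries. Acta2, Tagln and Myh11 held at most 40 counts in any library. Of these 10 markers, 3 were lower and 1 higher in both Pd1cKO-Tie2 libraries, against 18.1% and 17.7% of all tested genes, and 0 were called. None of the markers in these lists was at 3 counts or less in every library. The cells had been sorted, and the study's methods for isolating endothelial cells label CD31 and CD45, the latter a marker of white blood cells. Ptprc, which encodes CD45, was at 86.18, 138.3, 54.5 and 67.75 CPM, and both Pd1cKO-Tie2 libraries were below both controls. The part of these cells in the levels of Slc2a3, Slc16a3, Slc16a7 and Emb was not tested.

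Within a library, the endothelial carriers were set against these paralogs per kilobase, as a description with no test. Slc2a1 exceeded Slc2a3 by 132-fold and 88.8-fold in the Pd1fl/fl and by 319-fold and 233-fold in the Pd1cKO-Tie2 libraries. Slc16a1 exceeded Slc16a3 by 63.5-fold and 62.2-fold in the Pd1fl/fl and by 133-fold and 246-fold in the Pd1cKO-Tie2 libraries. Both ratios were thus higher in each Pd1cKO-Tie2 library than in either control, and being taken within a library they do not depend on the scaling. The ratio of Slco1c1 to Slco1a4 was 29.1 and 52.0 against 82.0 and 57.3, separate by a narrow margin.

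**Figure D3:**
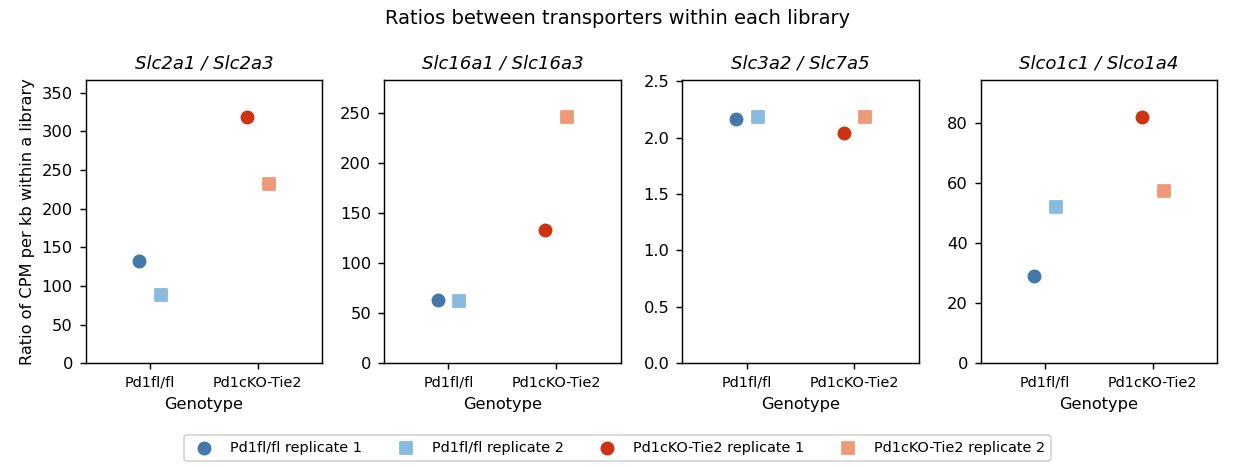
Ratio of the levels of 2 transporters within each library, from CPM per kilobase of exon, with 1 point for each library by genotype and each axis starting at 0. Slc2a1 over Slc2a3 and Slc16a1 over Slc16a3 are higher in both Pd1cKO-Tie2 libraries, while Slc3a2 over Slc7a5 stays between 2.04 and 2.19 in all 4 libraries.

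Slc7a8 encodes LAT2, another light chain of CD98hc, and had a log2 fold change of 0.19 ± 0.15 (SE) with edgeR's p at 0.260. Its level per kilobase was 0.499, 0.445, 0.407 and 0.428 of that of Slc7a5. The share was lower in both Pd1cKO-Tie2 libraries than in either control by a small margin. Slc7a7 and Slc7a6, the y+LAT light chains for cationic amino acids, had log2 fold changes of 0.47 and -0.17, and Slc38a1, a neuronal glutamine carrier, had -0.13, with edgeR's p between 0.245 and 0.550 for these 3 genes. The value of Slc7a7 was 0.089 without Pd1fl/fl replicate 2 and 1.0016, with an edgeR p of 0.0392, without Pd1fl/fl replicate 1. Slc2a4, the insulin-sensitive glucose carrier, held 54, 0, 0 and 0 counts and was not tested. Slc22a6, Slco1a1 and Slco1a6 were not listed.

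A further 33 transporters of the barrier, which carry other amino acids, vitamins, metals, nucleosides and lipids, gave the surroundings of the members. All 33 were tested: 20 were higher and 13 lower in the fit, 0 met the criterion, 1 had an unadjusted p under 0.05, and 0 passed an adjusted p of 0.05 in edgeR's test. Both Pd1cKO-Tie2 libraries were above both controls for 16 of the 33 and below for 4, against 17.7% and 18.1% of all tested genes, and the median log2 fold change was 0.15 with TMM scaling and -0.22 with scaling to the pan-endothelial markers. Slc39a8 encodes ZIP8, a carrier of zinc and manganese, and was the gene with the unadjusted p under 0.05. Its levels were 1487, 1345, 1793 and 2292 CPM, separate between genotypes, with a log2 fold change of 0.53 ± 0.15 (SE; edgeR p 0.0133, adjusted p 0.735). Without Pd1cKO-Tie2 replicate 2 its unadjusted p was 0.0626.

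Among the other carriers whose genotypes did not overlap, most had higher levels in Pd1cKO-Tie2 with TMM scaling. Slc1a4 (ASCT1, a serine carrier) was at 2459, 2412, 2814 and 2839 CPM, with a log2 fold change of 0.21 (edgeR p 0.0569). Slc6a6 (taurine carrier), Slc29a1 (adenosine carrier ENT1), Slc23a2 (vitamin C carrier), Flvcr2 (choline carrier, listed as Mfsd7c), Slc44a1 (choline carrier), Slc38a3 (glutamine carrier) and Slco2b1 (organic anion carrier) had log2 fold changes between 0.18 and 0.55, with edgeR's p between 0.0658 and 0.210. Slc20a2, the phosphate carrier, had 0.82 (edgeR p 0.0928), and Slco3a1, at 1.48 to 10.5 CPM, had 1.67 (edgeR p 0.105). Tfrc, the transferrin receptor that brings iron into the cell, was at 697, 816, 679 and 571 CPM, below the controls in both Pd1cKO-Tie2 libraries, with a log2 fold change of -0.28 (edgeR p 0.125).

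**Figure D4:**
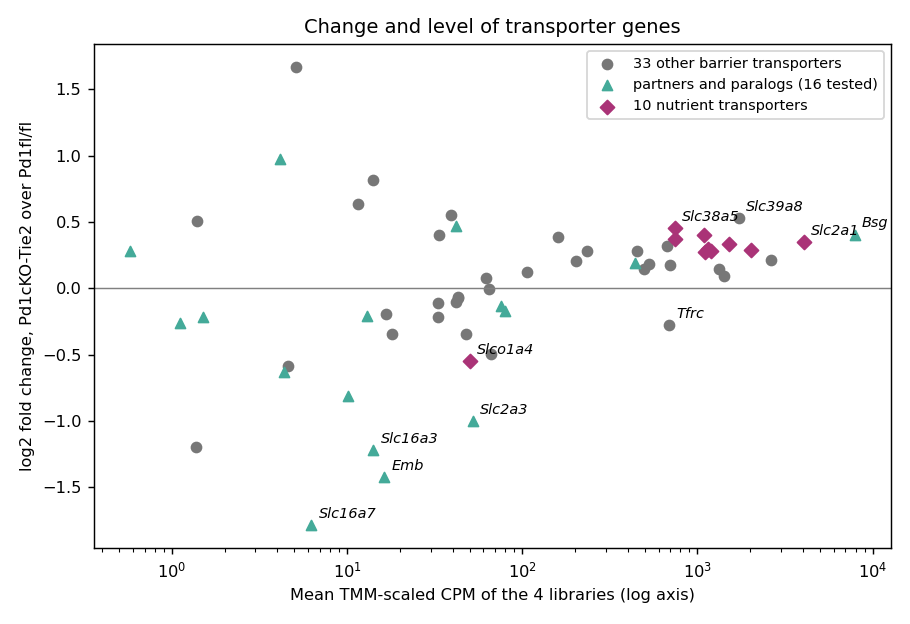
Fitted log2 fold change, Pd1cKO-Tie2 over Pd1fl/fl (y axis), against the mean TMM-scaled CPM of the 4 libraries (x axis, log scale) for the 10 members, 33 other barrier transporters and 16 partners and paralogs, with 1 point for each gene. With TMM scaling, members other than Slco1a4 lie between 0.27 and 0.45, and Slc16a3, Slc16a7, Emb and Slc2a3 lie between -1.78 and -0.9996 at low levels.

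Promoter sequences of RefSeq (GRCm38.p6) were found for 9 of the 10 members, with 2 starts for Slc7a1 and none for Slc7a5. Within 250 bases before the start, on either strand, the letters ATCAAAG (TCF/LEF) were found for 1 member, Slc7a1, and in 3.21% of all 32851 promoters. The match lay only in 1 of the 2 windows of Slc7a1, at chr5:148392816-148393065, and all 250 bases of that window lie in annotated exon. Annotated exon also covered 250 bases of the window of Slc22a8, 169 of Slc3a2, 128 of Slc38a5, 110 of Mfsd2a and 34 of Slc2a1. The letters TGATGNAA (amino acid response element) were found for 0 members and in 3.45% of promoters. The E-box CACGTG was found for Slc16a1 and Slc38a5 and in 6.02% of promoters, and the hypoxia response core ACGTG, which every E-box of this form contains, for 5 members and in 16.6% of promoters. The ETS core GGAA was found for 8 members and in 93.4% of promoters, and the forkhead core TTGTTT for Slc38a5, Slco1c1 and Slco1a4 and in 18.3%. A match is only a match of letters, and its absence says nothing of a factor. The promoter of Slc16a1 is shown for its E-box, and those of Slco1c1 and Slco1a4 because these carriers of one family had fitted changes of opposite sign while both windows hold a forkhead core. They lie at chr3:104638414-104638663 (plus strand), chr6:141524104-141524353 (plus strand) and chr6:141856221-141856470 (minus strand). Each is printed 5′ to 3′ on the strand of its gene, with the matched letters in capitals: the E-box in Slc16a1, and AAACAA, the forkhead core read on the opposite strand, in the other two.
Slc16a1: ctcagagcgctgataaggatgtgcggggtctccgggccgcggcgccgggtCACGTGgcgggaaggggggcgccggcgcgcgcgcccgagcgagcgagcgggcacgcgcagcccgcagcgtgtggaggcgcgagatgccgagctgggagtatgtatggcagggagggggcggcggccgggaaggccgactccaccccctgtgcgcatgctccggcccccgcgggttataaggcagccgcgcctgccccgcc
Slco1c1: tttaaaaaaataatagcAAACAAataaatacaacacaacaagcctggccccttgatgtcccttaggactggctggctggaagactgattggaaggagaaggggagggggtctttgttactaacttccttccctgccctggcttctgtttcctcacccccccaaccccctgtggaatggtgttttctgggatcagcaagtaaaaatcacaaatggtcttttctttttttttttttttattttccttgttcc
Slco1a4: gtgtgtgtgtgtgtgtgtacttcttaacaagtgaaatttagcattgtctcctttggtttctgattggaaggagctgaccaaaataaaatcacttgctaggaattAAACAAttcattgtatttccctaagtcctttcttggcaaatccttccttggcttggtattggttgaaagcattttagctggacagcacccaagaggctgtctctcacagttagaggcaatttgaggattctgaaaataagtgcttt
The E-box begins 200 bases before the start of Slc16a1, and the forkhead core 233 bases before that of Slco1c1 and 146 bases before that of Slco1a4. The G and C content of these windows was 76.4% for Slc16a1, 42.8% for Slco1c1 and 39.2% for Slco1a4, against a median of 52.4% over all promoters.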

How the data were processed

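RNA of P0 brain endothelial cells was extracted with TRIzol and sequenced on an Illumina HiSeq instrument. The submitters' processing notes name Bowtie2 2.2.3, TopHat2 2.0.12, HTSeq 0.6.0 and the build mm9, while the files give gene positions on GRCm38, of which 90.1% match GENCODE M21. That of Slc22a8 does not match it, and its exon length is that of GENCODE M21. The use of strand is not given in the sources used here.

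The authors deposited 4 tables, each with whole-number read counts per gene, not normalized, for 1 Pd1cKO-Tie2 and 1 Pd1fl/fl library. The CPM values, which the authors scaled to each library's total, served to recover that total. The tables' fold changes and p-values, the results of the authors' own pairwise tests, were not used. Broken lines, 10 in all and found in 2 of the tables, were skipped, and 0 counts differed between the tables of a library. Genes absent from a library's tables were given a count of 0. Libraries are numbered by column. One Pd1cKO-Tie2 column, numbered 2, carries a number found in no label and was assigned by genotype only. A count of 3, the floor for a gene at 0, equals 0.124 to 0.219 CPM and covers counting error only.

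Counts of all genes were tested with edgeR 4.0.16 (R 4.3.3): filterByExpr, TMM, quasi-likelihood F test, no covariate, all 4 libraries, Benjamini-Hochberg adjustment over 15909 genes, with a common biological coefficient of variation of 0.610. With 2 against 2 libraries an exact permutation test cannot reach p = 0.05, so none was run. Exon lengths, overlaps and shared stretches came from GENCODE M21 with Python 3.11.15.

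The members and lists were chosen with earlier results of these data known. Named beside all members were those partners, paralogs and other barrier transporters that met the criterion, did not overlap between genotypes or were among the 3 highest per kilobase, at most 12 per list by p. Slc2a4 was named after its values were seen, and the ratios between genes other than Slc7a5 and Slc3a2 were likewise chosen after values were seen. The alternatives were DESeq2 1.42.0, voom of limma 3.58.1, other filters and scalings, a replicate block and leaving out each library.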

Additional observations from a re-analysis of the deposited data

How the results depend on the processing

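Under the 13 alternatives, 0 members met the criterion and 0 passed an adjusted p of 0.05, the smallest adjusted p being 0.117 with DESeq2. Scaling to the pan-endothelial markers changed most: all tested genes had a median log2 fold change of -0.36 there and 994 calls, 138 higher and 856 lower, against 640 calls, 224 higher and 416 lower, with TMM. Under it the median was -0.041 over the members and -0.22 over the other barrier transporters, 2 of 10 members did not overlap (46.3% of all tested genes), and 1 had an unadjusted p under 0.05 (11.2% of all tested genes). Fitted log2 fold changes turned negative there for Slc2a1 (-0.0085), Slc3a2 (-0.020), Slc16a1 (-0.062), Slco1c1 (-0.067), Mfsd2a (-0.074), Slc22a8 (-0.078), Slc6a6 (-0.033), Flvcr2 (-0.071), Slc29a1 (-0.071), Slc1a4 (-0.14), Slc7a8 (-0.16), Slc38a3 (-0.17) and Slco2b1 (-0.18), none of which was called in either direction. Without each library in turn, the members' median log2 fold change lay between 0.26 and 0.38. Their number with an unadjusted p under 0.05 varied, and a genotype left with 1 library was assumed to vary like the other. The filter of at least 10 counts called 1 other barrier transporter, Slco3a1 (log2 fold change 1.66, p 0.0460 in edgeR's test). Slc16a7 missed the criterion without a filter on low counts (p 0.0550) and with the replicate block (p 0.0831). Of 403 values of 31 single genes, 363 kept direction and side of the threshold, 19 passed it newly (9 of Emb, 8 of Slc2a3, 1 of Slc7a7 and 1 of Slco3a1), 8 lost it and 13 reversed. For these changes the cause was not tested.

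Labels share only the replicate number 1 between genotypes. Deviations of libraries with the same column number had a correlation of -0.026 over the tested genes. With 2 libraries per genotype this is 1 value, which cannot settle whether the libraries are paired. With the column number as a replicate block, the median log2 fold change over the members was 0.31. Of the 10 members, 6 had an unadjusted p under 0.05, against 4.9% of all tested genes, and the criterion called 445 genes. Slco1a4 had the fewest counts of the members, from 624 to 1097, and the widest interval.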

Other observations

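The level of a barrier transporter went with the direction of its fitted change, a split by level that was made after the values were seen. Of the 14 other barrier transporters with a mean level of at least 100 CPM, 13 were higher in Pd1cKO-Tie2 in the fit, with Tfrc the exception, and their median log2 fold change was 0.19. Of the 19 under 100 CPM, 7 were higher and 12 lower, with a median of -0.071. Over all tested genes, 64.7% of 2128 genes at or above this level and 47.2% of 13781 genes under it were higher, so part of the same lean was seen outside the transporters. Among the members, Slco1a4 was both the one gene under 100 CPM and the one with a negative fitted value. These shares were not tested, and under scaling to the pan-endothelial markers the directions of several of these genes turned.

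Choroid plexus epithelium also expresses several organic anion carriers. Of its 10 markers, 7 were listed in the tables, and Folr1, Kcnj13 and Kl were not. Enpp2, which other cells also express, made up nearly all of the list's summed level, at 180.2, 206, 204 and 321 CPM in Pd1fl/fl replicates 1 and 2 and Pd1cKO-Tie2 replicates 1 and 2. The other listed markers together were at 13.1, 6.47, 10.8 and 8.41 CPM. Ttr, the most abundant transcript of that epithelium, held 15, 0, 99 and 0 counts in the same order, and Slco1c1 held 25808, 26241, 51880 and 31227. The part of choroid plexus cells in the levels of the organic anion carriers was not tested.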
